A study of Mus musculus with 3 samples.

Results

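The genes described here are 33 mouse genes of cholesterol and fatty acid metabolism, followed through single-cell RNA libraries of ear epidermis. They were taken from a list of symbols that was drawn up with earlier results of these data known, and all 33 were found among the 34289 features counted. By role, 18 encode enzymes of sterol synthesis (Acat2, Hmgcs1, Mvk, Pmvk, Mvd, Idi1, Fdps, Fdft1, Sqle, Lss, Cyp51, Tm7sf2, Msmo1, Nsdhl, Hsd17b7, Ebp, Sc5d and Dhcr7). A further 4 regulate the pathway or carry sterols within the cell (Insig1, Srebf1, Srebf2 and Stard4), 9 make or modify fatty acids (Acly, Acaca, Fasn, Scd1, Scd2, Elovl5, Elovl6, Fads1 and Fads2) and 2 export sterols (Abca1 and Abcg1).

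The cells had been prepared as Langerhans cells, the antigen-presenting cells that live among the keratinocytes of the epidermis, from the ears of male mice labelled as strain Cd1. The untreated library came from mice given only Nair, a depilatory cream, the croton oil library from skin painted with this irritant together with acetone and olive oil, and the microneedle library from skin punched many times with a microneedle array. Both kinds of treated skin were taken 48 hours after treatment began. Epidermis was split off with trypsin and pressed apart, after which dead cells were taken out and Langerhans cells were enriched magnetically. There was 1 library per group. The labels do not state how many animals went into a library, nor the age of the animals, so treatment, animals and library preparation cannot be told apart, and no test between groups was made.

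Cholesterol is built from acetyl-CoA through mevalonate, farnesyl pyrophosphate, squalene and lanosterol. When sterol in the endoplasmic reticulum is low, the transcription factor SREBP2 (gene Srebf2) is released from its INSIG anchor, is cut and moves to the nucleus, where it binds sterol regulatory elements, usually beside NF-Y boxes. SREBP1 (gene Srebf1) acts in the same way with a preference for fatty acid genes. Surplus sterol gives rise to oxysterols that activate liver X receptors, which switch on the exporters Abca1 and Abcg1. In the epidermis both branches are best known from keratinocytes, which make the lipids of the skin barrier.

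The promoter windows of these genes were searched for the motifs of those regulators, since the members are textbook targets of them. Each window ran from 250 bases before to 50 bases after the canonical start of the GENCODE M39 transcript (build GRCm39), and both strands were read. The sterol regulatory element TCACNCCAC was found in 3 members, Hmgcs1, Acaca and Fasn, and in 1.34% of the 21656 windows of protein-coding genes. A 10-base form of the element, which contains the 9-base one after 1 further base, was found in Fasn and in 0.0785% of all windows. The 3 stretches are given 5′ to 3′ on the gene's strand with the element in capitals.
Hmgcs1: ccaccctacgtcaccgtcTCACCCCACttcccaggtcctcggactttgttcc
Acaca: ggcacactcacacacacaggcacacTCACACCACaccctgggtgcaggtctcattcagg
Fasn: cgcgcgggcaTCACCCCACcggcggcggc
The Hmgcs1 stretch (chr13:120151732-120151783, plus strand) lies upstream of the gene and overlaps an exon of Gm60502 on the other strand. The Acaca stretch (chr11:84063825-84063883, plus strand) is intronic to longer Acaca transcripts, and the Fasn stretch (chr11:120715063-120715091, minus strand) overlaps an exon of another Fasn transcript.

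The NF-Y box CCAAT was more widespread. It occurred in the windows of 14 of the 18 sterol synthesis genes, 3 of the 4 regulators and transporters, 4 of the 9 fatty acid genes and 1 of the 2 exporters, against 8662 of the 21656 windows of protein-coding genes. At least 2 boxes were present in 8 of the 18 sterol synthesis windows and in 12.7% of all windows. The upstream stretches of Sqle and Msmo1, whose levels are described below, are shown with CCAAT, or its complement ATTGG, in capitals.
Sqle: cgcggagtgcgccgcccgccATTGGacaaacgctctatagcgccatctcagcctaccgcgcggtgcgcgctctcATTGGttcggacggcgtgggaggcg
Msmo1: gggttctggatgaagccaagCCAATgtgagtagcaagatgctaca
The stretches of Sqle (chr15:59186745-59186843, plus strand) and Msmo1 (chr8:65186963-65187007, minus strand) overlap no annotated gene. The E-box CACGTG occurred in 2 of 18 sterol synthesis windows (Hsd17b7 and Sc5d), 1 of 4 regulators and transporters (Insig1), 2 of 9 fatty acid genes (Acaca and Elovl5), 1 of 2 exporters (Abca1) and 7.84% of all windows. The liver X receptor DR4 motif, searched as exact repeats of its 6-base AGGTCA site with 4 bases between them, was in no window at all, and the AGTTCA form in 3 windows, none of a member. These are matches of letters and not binding sites.

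Langerhans cells were taken as retained cells in which Cd74, H2-Aa, H2-Ab1 and H2-Eb1 made up at least 2% of unique molecular identifiers (UMIs, each 1 captured molecule) and Epcam had at least 2 UMIs. The gate held 8652 untreated, 5920 croton oil and 5290 microneedle cells, with 107593396, 81343121 and 96681958 UMIs. All 8 Langerhans cell markers exceeded 20 CPM (counts per 1000000 UMIs summed over the gated cells) in each library. The gate itself selected for Epcam and the 4 antigen-presentation genes among them. The markers outside the gate were Cd207 (568, 326 and 465 CPM), Mfge8 (464, 2220 and 1203) and Cd24a (199.7, 299 and 378). Median depth was 11514.5, 12581 and 17346 UMIs per cell. Near the limits of the gate lay 69, 107 and 48 cells with under 2.5% of the 4 antigen-presentation genes, and 111, 437 and 72 cells with at most 3 Epcam UMIs. Clusters resembling Langerhans cells held a further 158, 1127 and 296 cells that failed the gate. The 10 keratinocyte markers summed to 268, 314 and 64.3 CPM within the gate, the 10 monocyte and macrophage markers to 331, 402 and 317, and the 7 sebocyte markers to 1.47, 3.33 and 3.31. The 7 T cell markers summed to 5.56, 76.1 and 20.6. Of the gated cells, 59, 20 and 8 lay in clusters named for another cell type, and 1, 79 and 12 in a cluster with markers of both T cells and Langerhans cells. The part of these cells in the results was not tested. Every called change of the 33 genes between libraries in gated cells kept its sign when only gated cells of the largest Langerhans cell-like cluster of each library were used. The libraries shared between 13 and 32 cell barcodes pairwise, out of at least 6945 barcodes each.

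Levels are CPM, always given in the order untreated, croton oil, microneedle. Changes are log2 ratios after adding 5 CPM to each level, which understates changes of low genes. A gene entered a comparison with at least 20 CPM in either library, and is said to have risen or fallen if the ratio passed 1.5-fold on that scale. A gene that entered only through the library in which it was high had to differ, so counts and medians over the genes that entered are descriptions, and the number that entered in this way is given beside them. Intervals of levels are exact Poisson 95% intervals, and those of log2 changes are approximate 95% intervals (delta method) from the same counts. Both cover counting error only, not differences between animals.

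Sterol synthesis genes were higher after both treatments, and for most steps highest after microneedling. After croton oil 8 of the 11 that entered rose and none fell, against 15.1% of all 6839 genes rising and 16.2% falling. After microneedling 12 of the 13 that entered rose and none fell, against 9.04% and 6.73% of 6703 genes. At least 2-fold higher were 6 and 10 of them, against 5.48% and 3.91% of all genes, and none was 2-fold lower, against 5.48% and 1.76%. Of the rises, 2 of the 8 after croton oil and 5 of the 12 after microneedling were of genes below the entry level untreated. Over all 18 genes with no entry level, 11 and 15 rose and none fell, beside 3.98% and 2.54% rising and 4.61% and 2.01% falling among all 34289 features, many of them hardly detected. With entry by the mean of the 3 libraries, a choice made after seeing the data, 8 and 10 of 11 rose and none fell, beside 14.7% and 8.93% rising and 14.6% and 5.32% falling among 6340 genes. The median change of the genes that entered was 1.01 after croton oil and 1.57 after microneedling (0.84 and 1.31 over all 18), and that of all genes −0.03 and 0.02. Both comparisons use the same untreated library. The plot of levels by library shows the steps in pathway order.

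**Figure D1:**
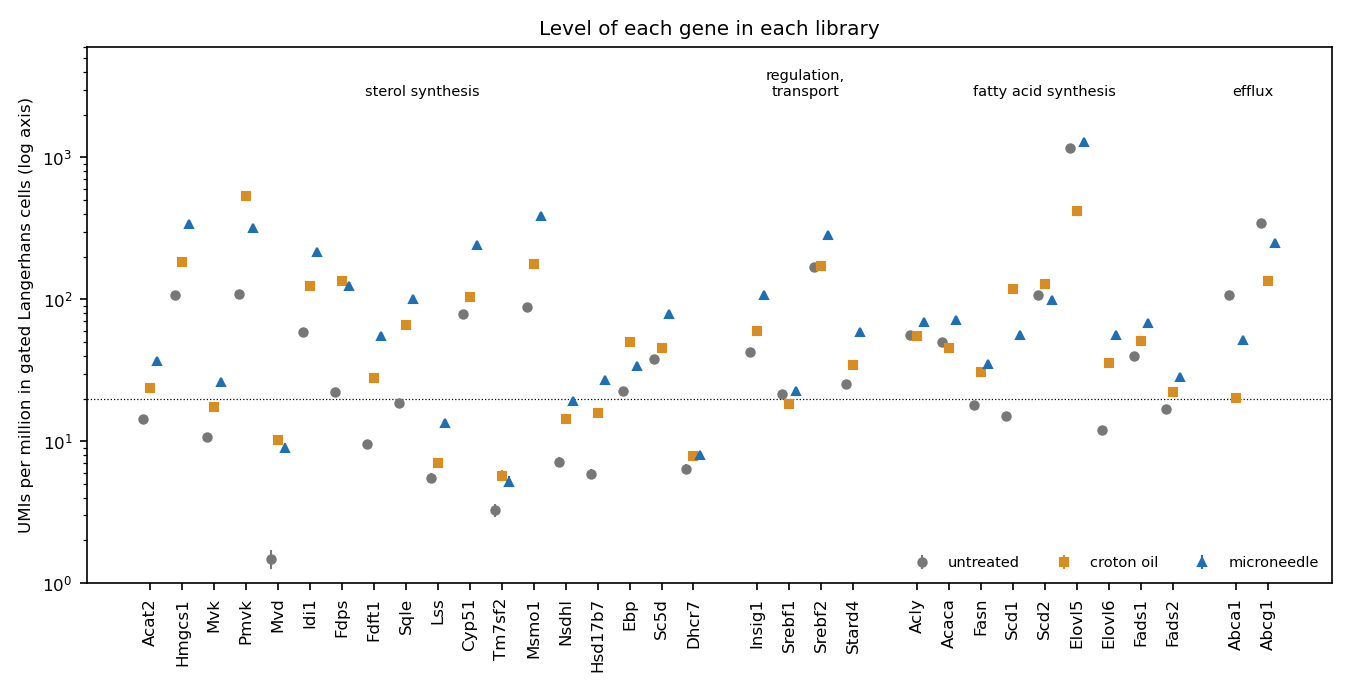
Level of each of the 33 genes in gated Langerhans cells, in CPM on a log axis, by library (grey circles untreated, orange squares croton oil, blue triangles microneedle). Vertical bars are Poisson 95% intervals, mostly smaller than the symbols, and the dotted line is the entry level of 20. Most sterol synthesis genes run upward from untreated to croton oil to microneedle, whereas Abca1 and Abcg1 are highest untreated and lowest after croton oil.

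The early steps lead from acetyl-CoA to mevalonate and on to the isoprenoid units. Hmgcs1, whose product condenses acetyl-CoA with acetoacetyl-CoA, was at 107 (105 to 109), 183 (180 to 186) and 342 (338 to 345) CPM. It rose after croton oil by 0.75 and after microneedling by 1.63, and was also past the fold between the treatments (0.88). Acat2, the cytosolic thiolase before it, stood at 14.3, 23.7 and 36.9 CPM, with changes of 0.57 (below the fold) and 1.12. The kinases that follow differed from one another. Mvk (mevalonate kinase) measured 10.8, 17.3 and 26.3 CPM and rose after microneedling by 0.99. Pmvk (phosphomevalonate kinase) measured 109.7 (108 to 112), 532 (527 to 537) and 318 (315 to 322) CPM, so that its highest level was in the croton oil library, with rises of 2.23 and 1.49 and a microneedle-to-croton-oil change of −0.73. Mvd, the decarboxylase after Pmvk, was below the entry level everywhere at 1.48, 10.2 and 9.03 CPM, so no call was made.

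Idi1, which interconverts the isoprenoid units, was at 58.5, 124 and 217 CPM and rose by 1.02 and 1.80. Fdps, which joins them into farnesyl pyrophosphate, was at 22.1 (21.2 to 23.0) CPM untreated, 134 (132 to 137) after croton oil and 125 (123 to 127) after microneedling. Its rises of 2.36 and 2.26 ranked 79 of 6839 and 30 of 6703 genes from the highest, and the treatments differed little (−0.10). Farnesyl pyrophosphate also feeds protein prenylation and other products, and the genes from Fdft1 onward are specific to sterols. Fdft1, squalene synthase, was at 9.57, 27.7 and 55.3 CPM, rising by 1.17 and 2.05. Sqle, squalene epoxidase and an oxygen-dependent control point, was at 18.7, 65.5 and 99.9 CPM, rising by 1.57 and 2.14.

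Lanosterol is then turned into cholesterol by the removal of methyl groups and the shifting and reduction of double bonds. Cyp51, the lanosterol demethylase, was at 78.4 (76.7 to 80.1), 104 (102 to 106) and 239.7 (237 to 243) CPM. Its change was 0.39 after croton oil, below the fold, and 1.55 after microneedling. Msmo1, the C-4 methyl oxidase, was at 87.7 (85.9 to 89.5), 178 (176 to 181) and 384 (380 to 388) CPM and rose by 0.98 and 2.07. These 2 genes were the sterol synthesis members at least 2-fold higher after microneedling than after croton oil (1.17 and 1.09), a change that 1.02% of 6640 genes reached. Hsd17b7, which reduces the C-3 ketone, measured 5.87, 15.9 and 27.2 CPM and rose after microneedling by 1.57. Sc5d, the C-5 desaturase, measured 37.9, 45.1 and 78.5 CPM, with changes of 0.22 and 0.96, of which only the latter passed the fold.

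Ebp, the isomerase of the sterol ring double bond, went the other way between the treatments. Its levels were 22.5, 50.4 and 33.6 CPM, so it rose after croton oil by 1.01, while its change after microneedling (0.49) and that between the treatments (−0.52) stayed below the fold. Lss, Tm7sf2, Nsdhl and Dhcr7 entered no comparison, with levels of 3.27 to 7.19 CPM untreated, 5.73 to 14.4 after croton oil and 5.18 to 19.3 after microneedling. Of a wider list of 20 sterol genes outside the 33, 16 entered, and 3 rose and none fell in each comparison with untreated, beside 15.1% and 16.2% of all genes for croton oil and 9.04% and 6.73% for microneedling. Their medians were −0.02 and 0.09.

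**Figure D2:**
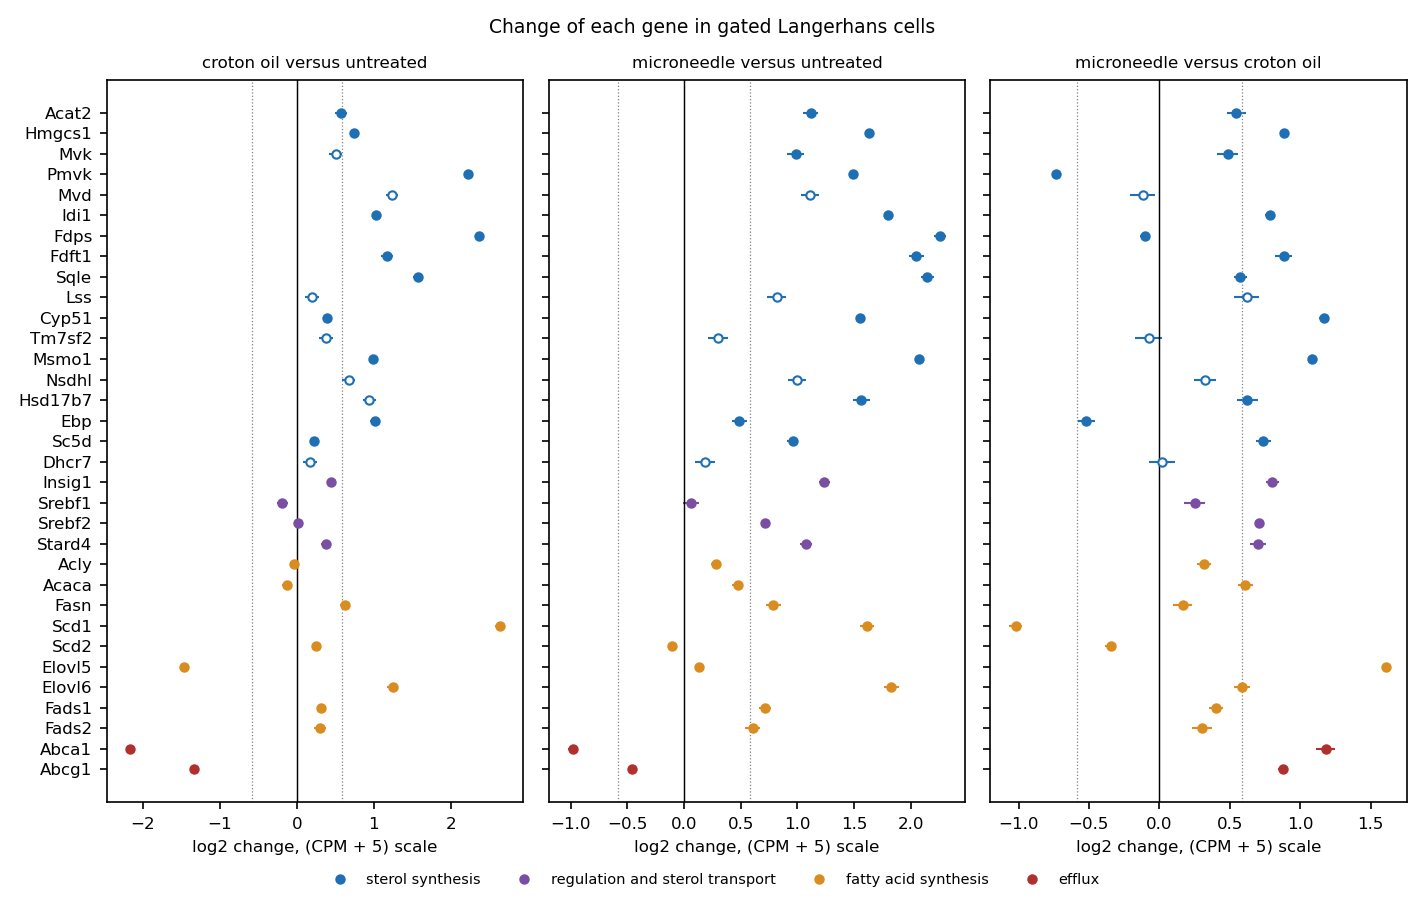
Log2 change of each gene in gated Langerhans cells on the (CPM + 5) scale for croton oil versus untreated, microneedle versus untreated and microneedle versus croton oil (axes differ between panels). Bars are counting intervals, open symbols mark genes below the entry level, and dotted lines mark 1.5-fold. Sterol synthesis points lie right of 0 in the first 2 panels, while Abca1 and Abcg1 lie left of it there and right of it in the third.

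The regulators and the sterol carrier were measured beside the enzymes. Srebf2 was at 169.6 (167 to 172), 171 (168 to 174) and 282 (279 to 286) CPM. Its change was 0.01 after croton oil and a rise of 0.72 after microneedling. Insig1, the sterol-sensing anchor and itself an SREBP target, was at 42.7, 59.5 and 107 CPM, with changes of 0.44 (below the fold) and 1.24. Stard4, a soluble sterol carrier, was at 25.3, 34.4 and 58.9 CPM, with changes of 0.38 (below the fold) and 1.08. Srebf1 remained between 18.2 and 22.6 CPM in the 3 libraries, with changes of −0.19 and 0.06. None of these 4 genes passed the fold after croton oil, where 15.1% of all genes rose, so nothing is read from that count. Insig1, Srebf2 and Stard4 passed it for microneedle versus untreated (9.04% of all genes) and for microneedle versus croton oil (6.48%). Under TMM, an alternative scaling of the libraries, the latter changes of Srebf2 and Stard4 stayed below the fold.

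Fatty acid genes did not move as a block. Of the 9, 3 rose and 1 fell after croton oil, against 15.1% and 16.2% of all genes, and 5 rose and none fell after microneedling, against 9.04% and 6.73%. Median changes were 0.30 and 0.61, and the first was 0.15 in all Langerhans cell-like clusters. All 3 genes that rose after croton oil (Fasn, Scd1 and Elovl6) and 4 of the 5 that rose after microneedling (these and Fads2) were below the entry level untreated, so nothing is read from these counts. The first steps changed little. Acly, which makes cytosolic acetyl-CoA from citrate, was at 56.5, 55.0 and 69.8 CPM, with changes of −0.04 and 0.28. Acaca, the acetyl-CoA carboxylase that commits carbon to fatty acids, was at 49.96, 45.1 and 71.4 CPM, and only its microneedle-to-croton-oil change (0.61) passed the fold, which it did not under TMM (0.49). Fasn, fatty acid synthase, was at 18.1, 30.6 and 34.9 CPM and rose by 0.62 and 0.79, the former dropping below the fold in all Langerhans cell-like clusters.

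The largest rise of any member after croton oil was that of Scd1, a desaturase that makes monounsaturated fatty acids. Scd1 was at 15.0 (14.2 to 15.7) CPM untreated, 119 (117 to 121) after croton oil and 56.1 (54.6 to 57.6) after microneedling. It rose by 2.63 after croton oil, ranking 62 of 6839 genes, and by 1.61 after microneedling, and was 2-fold lower after microneedling than after croton oil (−1.02), as 1.58% of genes were. Scd2, a close relative, was at 107, 128 and 99.7 CPM with changes of 0.24 and −0.10, both below the fold.

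The elongases went in different directions. Elovl6, which extends palmitate to stearate, was at 12.1, 35.5 and 55.8 CPM and rose by 1.24 and 1.83. Elovl5, which extends polyunsaturated chains, was at 1168 (1161 to 1174), 418 (413 to 422) and 1281 (1274 to 1288) CPM. It fell after croton oil by 1.47, while its microneedle change was 0.13, and its microneedle-to-croton-oil change of 1.61 ranked 7 of 6640 genes from the highest. The desaturases that work beside Elovl5 did not share that pattern. Fads1 was at 39.7, 50.6 and 68.4 CPM, with changes of 0.31 and 0.71, and Fads2 at 17.0, 22.1 and 28.4 CPM, with changes of 0.30 and 0.61, and the microneedle changes of both passed the fold. That of Fads2 dropped below it in 4 of 14 alternatives. In the wider fatty acid list, 3 of 11 genes rose and 2 fell after croton oil, beside 15.1% and 16.2% of all genes, and 3 of 10 rose and none fell after microneedling, beside 9.04% and 6.73%. Of these Acsl4, which activates arachidonate and similar acids, was at 65.0, 120.1 and 144 CPM and rose by 0.84 and 1.09.

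Both exporters were lower after treatment, most after croton oil. Abca1, which loads cholesterol onto apolipoprotein A-I, was at 107 (105 to 109), 20.1 (19.1 to 21.0) and 51.7 (50.3 to 53.2) CPM. It fell after croton oil by 2.16, the 25th lowest change of 6839 genes, and after microneedling by 0.98. Abcg1, which exports sterol to lipoprotein particles, was at 348 (344 to 351), 135 (132 to 137) and 251 (248 to 254) CPM. It fell after croton oil by 1.33, and its microneedle change of −0.46 was below the fold. Both were higher after microneedling than after croton oil, by 1.18 and 0.87.

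Of the oxysterol and liver X receptor list, 2 of 10 genes rose and 5 fell after croton oil, beside 15.1% and 16.2% of all genes, and none rose and 3 fell after microneedling, beside 9.04% and 6.73%. Apoe, the apolipoprotein that accepts exported cholesterol, was at 392, 157 and 192 CPM, with changes of −1.29 and −1.01. Cyp27a1, a sterol hydroxylase, was at 36.5, 14.7 and 21.7 CPM, with changes of −1.07 and −0.64. Pltp, a phospholipid transfer protein, differed from these, with 5.07, 35.6 and 10.1 CPM and a rise of 2.01 after croton oil.

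Set against each other, microneedle and croton oil cells differed by branch. Of 28 members that entered, 15 were higher and 2 lower after microneedling, against 6.48% and 4.74% of 6640 genes. The higher ones comprised 7 of 13 sterol synthesis genes, 3 of 4 regulators and transporters, 3 of 9 fatty acid genes and both exporters, and the lower ones were Pmvk and Scd1. Of the higher ones, 1 sterol synthesis gene was below the entry level after croton oil. With no entry level 8 of 18 sterol synthesis genes were higher and 1 lower (1.79% and 1.36% of all features), and with entry by the mean of the 3 libraries 6 and 1 of 11 (6.45% and 4.04%). Median changes were 0.62, 0.70, 0.32 and 1.03 in branch order, beside 0.06 for all genes. Summed over the 18 sterol synthesis genes the level was 607, 1547 and 2038 CPM, which is 1.32 times higher after microneedling than after croton oil. In the fatty acid sum of 1483, 903 and 1766 CPM, Elovl5 made up most of the untreated and microneedle levels (1168 and 1281) and less of the croton oil level (418). The efflux sum was 455, 155 and 303 CPM. Scaling by TMM shifted the median of all genes from −0.03 to 0.07 for croton oil versus untreated and from 0.06 to −0.06 for microneedle versus croton oil. With it the share of higher genes among all those past 1.5-fold went from 48.3% to 59.8% and from 57.7% to 33.1%, in the same order. Past 2-fold, 375 higher and 375 lower genes became 470 and 290, and 68 and 105 became 48 and 135. Every called member change kept its sign under TMM, but Fads2 for microneedle versus untreated, and Hsd17b7, Srebf2, Stard4, Acaca and Elovl6 for microneedle versus croton oil, then stayed below 1.5-fold. The change of Idi1 between the treatments dropped below the fold in all Langerhans cell-like clusters. The croton oil change of Acly turned from −0.04 to 0.06.

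The higher sterol synthesis of both treated libraries over untreated was present in the median cell as well as in the sums. In cells thinned to 5000 UMIs each, the 18 sterol synthesis genes together gave a mean of 2.96 UMIs per cell untreated, 7.89 after croton oil and 10.0 after microneedling, with medians of 3, 7 and 8. The middle 80% of cells ran from 1 to 6, 3 to 14 and 2 to 21 UMIs. Between the treatments the medians were close, and the lower quartile was 5 UMIs after croton oil and 4 after microneedling. The upper quartile was 10 and 13, so the microneedle excess lay in the upper part of the distribution. Variance over mean was 1.68, 2.89 and 6.77, where independent counting gives 1, so the microneedle cells were the most uneven. Thinning left out 262, 85 and 104 shallower cells. Without it the medians were 6, 18 and 27 UMIs, which also carry the difference in depth.

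**Figure D3:**
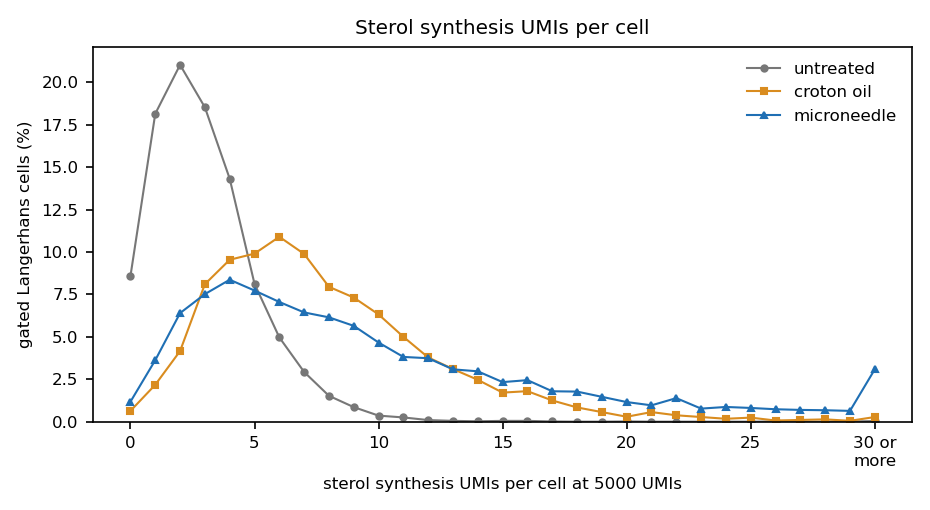
Distribution of sterol synthesis UMIs per gated Langerhans cell (x axis, cells thinned to 5000 UMIs, last point 30 or more) as the percentage of cells (y axis) in each library. The untreated cells peak at 2 UMIs, the croton oil cells at 6 and the microneedle cells at 4, and the microneedle cells spread out to a long upper tail.

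Levels in the microneedle library also differed between clusters. Cells resembling Langerhans cells fell into 8 clusters, each named here by a leading gene and each dominated by 1 or 2 libraries. In the microneedle library the sterol sum was 747 CPM in the smaller heat-shock cluster led by Hsph1 without C1qb, 1091 in the Cd69-led cluster and 1103 in the Adgre4-led cluster that held most untreated cells. It was 2020 CPM in the H2-Ea-led cluster that held most croton oil cells, 2120 in the main Scube1-led cluster and 2223 in the heat-shock cluster led by Hsph1 and C1qb. The untreated cells were at 497 CPM in the smaller heat-shock cluster, 612 in the Cd69-led, 599.97 in the Adgre4-led and 702 in the Scube1-led cluster, below the microneedle cells of the same cluster each time. Croton oil cells were at 1391 CPM in the heat-shock cluster led by Hsph1 and C1qb and 1549 in the H2-Ea-led cluster. They were at 1631 CPM in the Scube1-led and 1989 in the Fscn1-led cluster. Efflux in the microneedle cells was 494 CPM in the Adgre4-led cluster and 299 in the Scube1-led cluster. The clusters were built from all variable genes, so these are descriptions.

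**Figure D4:**
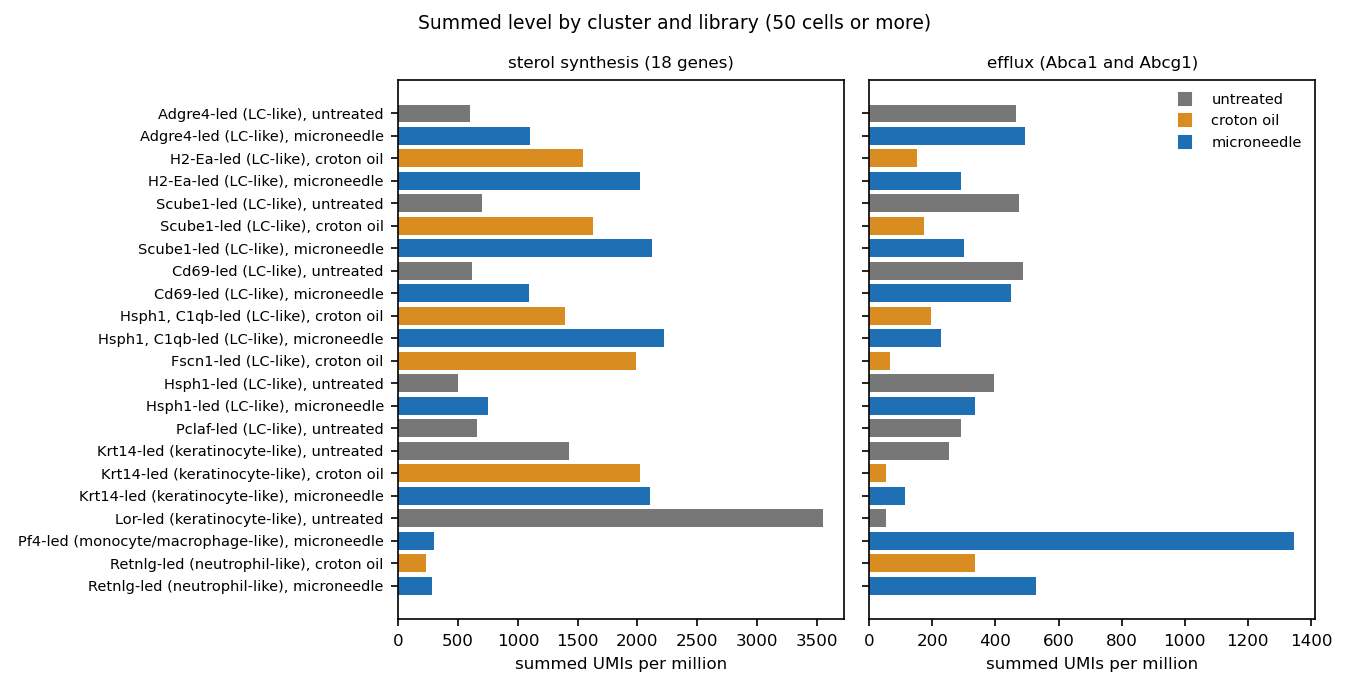
Summed level of the 18 sterol synthesis genes (left) and of Abca1 and Abcg1 (right), in CPM from 0, for each cluster with at least 50 cells in a library. Bar colour gives the library, clusters are named by leading gene, and for Langerhans cell-like (LC-like) clusters the sums are over gated cells. The microneedle bars span 747 to 2223 across LC-like clusters, and the macrophage-like cluster has the highest efflux bar and one of the lowest sterol bars.

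Dividing cells were compared with the others. Gated cells with at least 2 UMIs of Mki67, Top2a and Cdk1 together numbered 1471, 799 and 1455. Set against the other gated cells of their library, no member passed 1.5-fold in either direction in any library, where 1.48%, 0.736% and 0.325% of genes were higher and 0.0926%, 0.0783% and 0.0155% lower. With shares this small among all genes, nothing is read from the members' count.

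Cells carrying Ccr7 and Fscn1, the genes of Langerhans cells leaving for the lymph node, combined high levels of many sterol synthesis genes with low levels of Scd1, Scd2, Fads1, Elovl5 and Abcg1. Such cells (at least 3 UMIs of the pair) often failed the Epcam limit, so they were also taken from all clusters resembling Langerhans cells, a choice made after seeing the data. These gave 794 cells after croton oil and 186 after microneedling, and only 19 untreated, too few to compare. Within the croton oil library 8 of 15 sterol synthesis genes were higher and 2 lower than in the other cells, against 13.4% and 22.2% of all genes, with a median of 0.62. Within the microneedle library 10 of 16 were higher and none lower, against 15.9% and 23.2%, with a median of 0.68. Of the higher ones, 3 and 2 were below the entry level in the other cells.

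Idi1 was at 393 CPM in the migratory and 123 in the other croton oil cells (1.63), and at 530 and 215 in those of the microneedle library (1.28). Hmgcs1 was at 303 and 185 CPM, and at 689.7 and 342 CPM, in the same order. Sqle likewise stood at 139 and 65.0 CPM and at 225 and 99.6 CPM. Pmvk and Ebp were the 2 sterol synthesis genes lower in the migratory croton oil cells (−0.84 and −0.61).

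None of the 9 fatty acid genes was higher in the migratory cells of either library, while 6 were lower after croton oil and 5 after microneedling, beside 13.4% of all genes higher and 22.2% lower, and 15.9% and 23.2%, in that order. Of the lower ones, 3 in each library were below the entry level in the migratory cells. Fads1 had 7.85 against 51.4 CPM after croton oil and 12.3 against 68.6 CPM after microneedling (−2.13 and −2.09). Scd1 had 31.5 against 119 CPM and 17.7 against 55.9 CPM, and Elovl5 had 144 against 418 CPM and 417 against 1283 CPM. The other elongase, Elovl6, had 34.5 against 31.4 CPM and 70.3 against 54.6 CPM, with differences of 0.12 and 0.34 that were below the fold. Abcg1 had 29.4 against 134 CPM and 41.6 against 251 CPM (−2.01 and −2.46). Abca1 had 13.8 against 20.6 CPM, below the fold, and 13.2 against 51.8 CPM. In the gate alone the 138 migratory croton oil cells had 5 of 14 sterol synthesis genes higher and none lower, Pmvk and Ebp included. Of 9 fatty acid genes 4 were lower there and none higher, with a median of −0.57 against −1.03 in all clusters. Of all genes in the gate, 9.21% were higher and 17.8% lower.

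**Figure D5:**
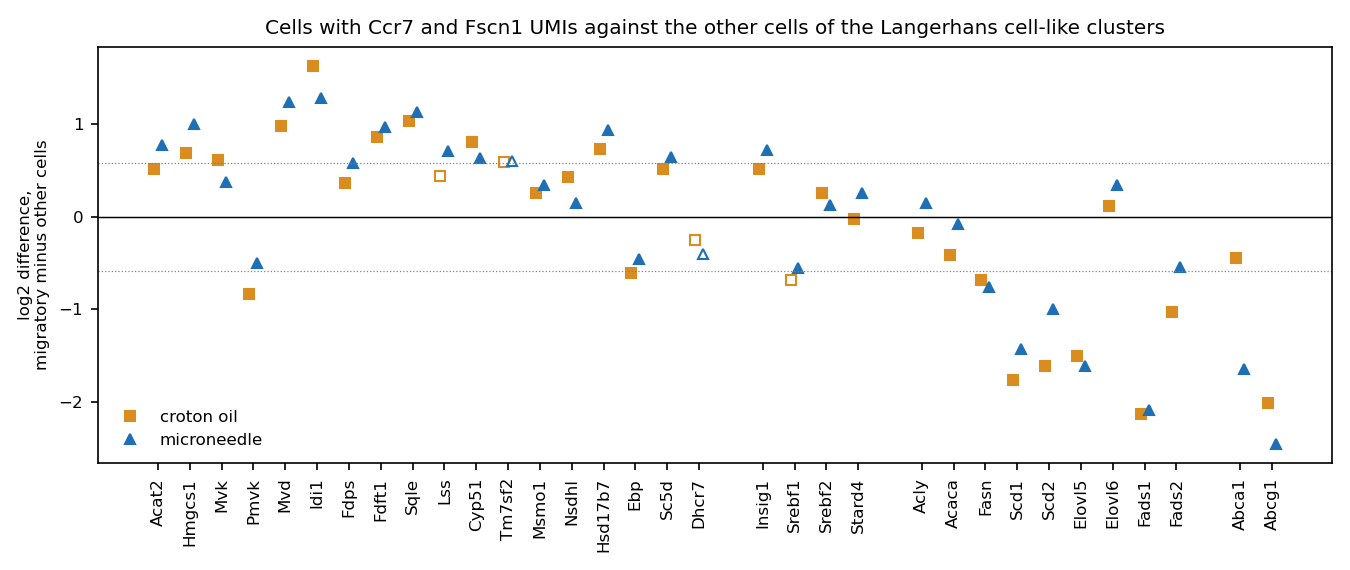
Log2 difference of each gene between cells with at least 3 UMIs of Ccr7 and Fscn1 together and the other cells of the Langerhans cell-like clusters, within the croton oil (squares) and microneedle (triangles) libraries. Open symbols mark genes below the entry level and dotted lines 1.5-fold. Most sterol synthesis genes lie above 0, and Scd1, Scd2, Elovl5, Fads1 and Abcg1 lie well below it in both libraries.

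Keratinocytes were of 2 kinds in different shares, a Krt14-led cluster of 125, 219 and 83 cells and a Lor-led, more differentiated cluster with over 50 cells in the untreated library only (114 cells, sterol sum 3552 CPM). The Krt14-led cluster was therefore used alone against the gated Langerhans cells of each library, a choice made after seeing the data. Untreated, 9 of 13 sterol synthesis genes were higher in it and 1 lower, against 25.5% and 23.2% of all genes. After croton oil 13 of 17 were higher and 1 lower (32.4% and 30.1% of all genes), and after microneedling 8 of 16 were higher and 2 lower (31.6% and 26.2%). The median differences were 0.97, 1.11 and 0.59, beside 0.02, 0.03 and 0.09 for all genes. Of the higher genes, 5, 6 and 2 were below the entry level in the Langerhans cells. Both keratinocyte clusters together gave an untreated median of 1.84. The Krt14-led cluster also carried 4 of 6 melanocyte markers, and the part of melanocytes in its levels was not tested.

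Hmgcs1 measured 602 CPM in these keratinocytes and 107 in Langerhans cells untreated, 418 and 183 after croton oil, and 580.2 and 342 after microneedling, and was higher in keratinocytes each time. Msmo1 measured 104 and 87.7 CPM untreated (0.23, below the fold), and 218 and 384 after microneedling (−0.80). Pmvk was the reverse of Hmgcs1, at 66.4, 118 and 106 CPM in keratinocytes against 109.7, 532 and 318 in Langerhans cells, and was lower in keratinocytes in every library. Dhcr7, the last reductase of the pathway, was at 35.7, 39.4 and 38.1 CPM against 6.39, 7.82 and 7.97, higher by 1.84, 1.79 and 1.73. Fads1 was at 13.0, 5.42 and 12.8 CPM in keratinocytes against 39.7, 50.6 and 68.4 in Langerhans cells, lower in each library.

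Changes between libraries were read in the same Krt14-led cluster. There the sterol sum was 1431, 2018 and 2106 CPM. After croton oil 13 of 17 sterol synthesis genes rose, against 20% of all genes, with a median of 0.99, and after microneedling 12 of 16, against 12.2%, with a median of 0.74. None fell in either comparison, and 4 and 3 of the rises were of genes below the entry level untreated. Counting intervals were wide in this small cluster, and those of some rises reached below the fold. Examples were Lss after croton oil (0.69, interval 0.34 to 1.04) and Mvk after microneedling (0.60, interval 0.28 to 0.91). In both keratinocyte clusters together, where the untreated cells included the Lor-led ones, the direction turned, with sterol medians of −0.07 after croton oil (6 genes above 0 and 11 below) and −0.11 after microneedling (7 above and 10 below). Abcg1 in these keratinocytes was at 156, 25.5 and 65.3 CPM and Abca1 at 96.1, 26.6 and 46.9 CPM, so both fell after either treatment, as 27.0% of all genes did after croton oil and 10% after microneedling. Elovl5 was at 274, 58.2 and 177 CPM, falling by 2.14 and 0.61. Sqle was at 41.5, 118 and 113 CPM and Fdps at 109, 296 and 221 CPM. Between the treatments, the median sterol change was −0.07, with none higher and Mvd and Ebp lower after microneedling, against 17.9% and 6.13% of all genes.

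Macrophage-like cells, present in numbers (385) only after microneedling, had low sterol synthesis and high Abca1. Of 13 sterol synthesis genes, 12 were at least 2-fold lower than in the Langerhans cells of that library, against 17.8% of all genes, with a median of −2.18. Of these 12, 8 were below the entry level in the macrophage-like cells and had entered through the Langerhans cells. Msmo1 measured 51.2 CPM against 384, Idi1 12.8 against 217 and Cyp51 12.4 against 239.7. Abca1 measured 1003 CPM against 51.7, a difference of 4.15, and Abcg1 343 against 251 (0.44, below the fold). Neutrophil-like cells had sterol sums of 233 CPM after croton oil and 284 after microneedling. In the gated Langerhans cells the keratinocyte markers summed to 268, 314 and 64.3 CPM, beside sterol sums of 607, 1547 and 2038 CPM. The part of keratinocyte RNA in these levels was not tested.

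Some counts carry an assignment doubt. On GRCm39, 10 members are overlapped by a protein-coding gene on the other strand and Tm7sf2 by Vps51 on the same strand. The strand setting of the counting is not given in the sources used here. Ctsb, which overlaps Fdft1, was at 203, 236 and 179 CPM, and Tcp1, which overlaps Acat2, at 58.8, 79.1 and 64.0 CPM. Acat2 and Scd1 have near copies, so reads could be split between them, and Acat3 measured at most 1.28 CPM.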

How the data were processed

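The labels describe 3 single-cell 3′ libraries (10x Chromium). The deposited values were UMI counts per gene and cell, whole and not normalized, which the authors had produced with Cell Ranger (8.0.0 in the file headers) on GRCm39, per the submitters' processing notes. The deposited tables covered barcodes already called as cells. The strand setting and the gene annotation are not given in the sources used here. Member genes and comparison lists were chosen with earlier results of these data known.

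Cells with at least 500 genes and at most 10% mitochondrial UMIs were kept. Scrublet's own threshold marked 2, 0 and 0 cells, under 0.5%, so the top-scoring 0.8% per 1000 cells were removed (773, 532 and 376), leaving 9054, 7626 and 6479 of 9876, 8241 and 6945 barcodes with 127666928, 119360952 and 117178809 UMIs. Joint clustering used scanpy 1.11.5 (10000 UMIs per cell, log1p, 2000 variable genes, 30 components, 15 neighbours, Leiden resolution 0.5), without correction between libraries. A marker counted as present at 20 CPM and 0.2 of its highest cluster level, and a class needed 3 markers and a 0.5 share of its list. This naming rule was set after the clusters were seen. The cluster that met it for T cells and Langerhans cells at the same share was left unnamed. The Krt14-led cluster met it for keratinocytes (9 of 10 markers) and for melanocytes (4 of 6), and took the name with the larger share. Markers of 12 classes were listed. Within the gate, neutrophil markers summed to 161, 81.2 and 99.0 CPM, conventional dendritic cell markers to 156, 140.0 and 116, and adipocyte, fibroblast and melanocyte markers each to at most 8.65. Mast cell markers summed to 11.2, 22.9 and 19.1 and endothelial markers to 8.25, 13.7 and 14.1.

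Counts were summed per library and class, with no count model, since there is 1 library per group, and the computation was tested on simulated data. TMM factors came from edgeR 4.0.16. Promoter windows and overlaps were read from the GRCm39 genome with GENCODE M39, in which 33767 of the features' identifiers occur. All members could be named. Those past 1.5-fold, the regulators and the exporters are given in full, as are up to 4 genes past 2-fold in the wider fatty acid and oxysterol lists. Some results are not reported here. Alternatives varied the pseudocount, entry level, scaling, gate, cells and thinning.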

Additional observations from a re-analysis of the deposited data

How the results depend on the processing

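No paired analysis was possible because each group is 1 library. Of 52 called member changes, 43 had a value in each of 15 alternatives, and 9 did not enter at 50 CPM and had 14. All 52 kept their sign wherever they had a value. Of the 43, 38 stayed past 1.5-fold. In all, 8 changes dropped below it at least once: Fasn for croton oil, Fads2 for microneedle, and Idi1, Hsd17b7, Srebf2, Stard4, Acaca and Elovl6 between the treatments. The counts over all 33 genes stayed within 1.5 times throughout, but those of some branches did not. With an entry level of 50 CPM, 1 of 5 fatty acid genes rose after croton oil in place of 3 of 9, and 3 of 7 after microneedling in place of 5 of 9. With TMM, 1 regulator or transporter and 1 fatty acid gene were higher after microneedling than after croton oil in place of 3 each, and 2 sterol synthesis genes were lower in place of 1.

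Median log2 changes moved as follows, where the cause was not tested. For croton oil versus untreated, the sterol median was 1.07 with a pseudocount of 1, 0.84 with no entry level and 1.10 with TMM. The fatty acid median was 0.38 with TMM, 0.15 in all Langerhans cell-like clusters and 0.38 in the largest cluster of each library. For microneedle versus untreated, the sterol median was 1.67 with a pseudocount of 1, 1.80 with an entry level of 50, 1.31 with none and 1.67 in the largest cluster. The fatty acid median was 0.71, 0.47 with an entry level of 50, 0.72 without cycling cells and 0.68 in the largest cluster, the first with a pseudocount of 1. For microneedle versus croton oil, the sterol median was 0.74 with a pseudocount of 1, 0.76 with an entry level of 50, 0.52 with TMM, 0.51 in all clusters and 0.72 in the largest. The fatty acid median was 0.40 with an entry level of 50, 0.20 with TMM and 0.41 in all clusters.

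By construction, mean sterol UMIs per cell fell with thinning to 3000 (1.79, 4.73 and 6.05) and were higher without thinning (7.55, 21.3 and 37.3). The median for migratory croton oil cells was 0.46 in the gate and 0.62 in all clusters. Among levels by cell class, the keratinocyte sterol sum of 2415 CPM untreated, 2021 after croton oil and 2172 after microneedling became 1431, 2018 and 2106 in the Krt14-led cluster, and 3552 in the untreated Lor-led one. The Krt14-led sterol medians of 0.99 and 0.74 for croton oil and microneedle versus untreated were −0.07 and −0.11 in both clusters together. The largest-cluster, heat-shock, migratory-cluster, keratinocyte-cluster and mean-entry alternatives were chosen after seeing the data. In gated Langerhans cells depth did not limit genes above the entry level, whose Poisson intervals were narrow, but intervals say nothing of animals. In the Krt14-led cluster intervals were wider.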
